A study of Mus musculus with 24 samples.

Results

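Total RNA from 4 mouse macrophage cultures labelled batch 3 was compared with total RNA from 4 cultures labelled batch 1. These are 8 of the 24 libraries of the series, taken by their batch and molecule labels. Batch 1 held 1 culture from Apobec1-/- mice and 3 from wild-type mice, and batch 3 held 2 of each. Apobec1 encodes a cytidine deaminase that edits RNA. All mice were C57BL/6J, littermates or matched for age, and 6 to 12 weeks old. Marrow cells washed out of the femurs were grown for 7 days in medium with serum and M-CSF (20 ng/mL), which turns marrow precursors into macrophages, and the submitters checked the macrophage surface proteins F4/80 and Cd11b by flow cytometry. The labels do not say what a batch number stands for, nor whether each culture came from its own mouse. The p-values therefore measure the spread between these cultures, which may be technical.

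Macrophages arise from marrow progenitors through promyelocyte and monocyte stages. Granulocyte and monocyte precursors make the proteins of the primary granules, and granulocyte precursors those of the secondary granules. Mature macrophages make complement C1q, scavenger receptors and the M-CSF receptor. Cholesterol is built from acetyl-CoA through mevalonate and squalene, and the transcription factor SREBP2 raises the genes of this route when membranes are low in sterol. The nuclear receptor LXR acts in the opposite state, raising the cholesterol exporters Abca1 and Abcg1 and the carrier apolipoprotein E when sterol is plentiful.

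Gene counts came to 7743450 to 12059361 per library in batch 1 and 6331272 to 7114862 in batch 3. Levels are given in CPM, each count set against its library's total over the tested genes after TMM, which corrects that total for composition, and a CPM is not comparable between genes of different length. Library values appear in the order Apobec1-/- 1 and wild type 1, 2 and 3 for batch 1, and Apobec1-/- 5 and 6 and wild type 5 and 6 for batch 3. Means carry the SD over the 4 libraries of a batch (n = 4), and log2 differences are batch 3 minus batch 1 with their standard error. A gene was called higher or lower where its adjusted p in edgeR's quasi-likelihood test, with genotype in the model, was under 0.05. Of the 10718 genes tested, 2591 (24.2%) were called higher in batch 3 and 2500 (23.3%) lower. Counts of total RNA calls in the gene lists below are to be read against these shares. The median difference over all genes was 0.01. Scaling by library totals alone raised that median to 0.09 and gave 3183 higher and 1985 lower, so that 61.6% of calls were higher against 50.9%. Batch accounted for 75.5% of the variance among the 8 libraries. Correlations of log2 levels ran from 0.973 to 0.994 within a batch and from 0.907 to 0.932 between batches.

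Several measures moved with the batch, and their part in the results was not tested. Xist, which marks cells of female mice, had 2 to 11 counts per library in batch 1 and 172 to 386 in batch 3. Each of the 4 Y-linked genes looked at had 266 to 1694 counts per library in batch 1 and at most 1 in batch 3. Batch and the sex of the mice therefore cannot be told apart, and genes on chromosomes X and Y were left out. Reads outside annotated genes made up 8.46% to 10.7% of alignments in batch 1 and 4.32% to 5.53% in batch 3. Apobec1 (chr6:122577792-122603024, mm10) lay at 1201, 489.6, 431 and 451 CPM in batch 1 and 624, 734, 325 and 332 CPM in batch 3. Levels were higher in each library labelled Apobec1-/- than in the wild-type libraries of its own batch. The labels do not say which part of the gene was removed, so this count over the whole gene does not check the genotype. All 8 libraries held the macrophage markers Adgre1, which encodes F4/80, and Itgam, which encodes Cd11b.

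Enzymes of cholesterol synthesis stood higher in batch 3. Of the 20 on the 2 sterol lists, 19 were called higher and none lower, against 24.2% of all genes called higher. The median difference was 2.15 for the 9 enzymes from acetyl-CoA to farnesyl diphosphate and its branch, and 2.49 for the 11 from squalene to cholesterol. All 19 had every batch 3 library above every batch 1 library, a separation that 23.5% of tested genes showed. The 19 calls were also made in the wild-type libraries alone and without each library in turn. In bulk RNA, a change in the number of cells of one type and a change in RNA per cell cannot be told apart.

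Promoter windows of the early enzyme Hmgcs1, of Idi1 and of Hsd17b7 are shown as examples of 2 motifs searched for in this gene set, the SREBP motif TCACNCCAC and the CCAAT box bound by NF-Y, a partner of SREBP. The Hmgcs1 window holds both, and the other windows shown hold CCAAT alone. Each RefSeq window (GRCm38.p6, the patch level of mm10) runs 5′ to 3′ from 250 bases before the start of transcription to 50 after it. Capitals mark matches on either strand.
Hmgcs1, chr13:119690101-119690400, plus strand: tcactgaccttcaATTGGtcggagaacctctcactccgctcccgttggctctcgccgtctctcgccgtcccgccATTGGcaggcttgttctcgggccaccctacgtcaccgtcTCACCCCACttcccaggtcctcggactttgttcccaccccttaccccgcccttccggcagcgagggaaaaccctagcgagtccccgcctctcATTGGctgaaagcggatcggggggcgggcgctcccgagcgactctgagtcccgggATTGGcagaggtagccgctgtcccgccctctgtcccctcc
Idi1, chr13:8885356-8885655, plus strand: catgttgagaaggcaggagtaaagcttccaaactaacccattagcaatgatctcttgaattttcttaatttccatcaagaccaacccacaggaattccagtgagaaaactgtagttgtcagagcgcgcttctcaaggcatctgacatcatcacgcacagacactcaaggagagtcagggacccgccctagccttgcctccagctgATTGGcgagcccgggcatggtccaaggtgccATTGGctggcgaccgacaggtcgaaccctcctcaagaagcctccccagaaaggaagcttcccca
Hsd17b7, chr1:169969156-169969455, minus strand: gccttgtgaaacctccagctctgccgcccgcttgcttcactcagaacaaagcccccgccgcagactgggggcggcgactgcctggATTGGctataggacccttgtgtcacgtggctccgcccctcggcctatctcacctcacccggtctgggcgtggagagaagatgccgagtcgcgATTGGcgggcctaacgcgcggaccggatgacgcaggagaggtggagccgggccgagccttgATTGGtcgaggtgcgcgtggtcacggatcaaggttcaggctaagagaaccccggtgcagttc
The run TCACCCCAC at bases 114 to 122 of the Hmgcs1 window is the window's only match to the SREBP motif, and the other capitals are ATTGG, the CCAAT box read on the opposite strand. These lie at bases 14, 75, 206 and 261 for Hmgcs1, at 206 and 237 for Idi1, and at 86, 178 and 239 for Hsd17b7. The table held windows for 15 of the 20 enzymes. CCAAT occurred in 14 of the 15, against 41.1% of all genes with a window (11096 of 27025), and TCACNCCAC in 1 of the 15, against 1.44% (388 genes). A match describes letters in a window and shows no binding.

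The pathway opens with Acat2, which joins 2 acetyl-CoA, at 3.60 ± 0.139 CPM in batch 1 and 23.3 ± 5.16 CPM in batch 3, 6.59 times higher. Hmgcs1, HMG-CoA synthase, lay at 39.2, 45.7, 47.0 and 47.5 CPM in batch 1 and at 176, 192, 214 and 189 CPM in batch 3. The batches did not overlap, and the difference was 2.15 ± 0.09 (adjusted p = 7.72e-09). Mvk and Pmvk, the 2 kinases that phosphorylate mevalonate in turn, differed by 2.04 ± 0.12 and 1.55 ± 0.16. Mvd, which decarboxylates mevalonate diphosphate, rose from 7.69 ± 1.24 to 51.6 ± 11.8 CPM (log2 2.85 ± 0.15).

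Idi1, the isopentenyl diphosphate isomerase, showed 12.9, 13.7, 16.8 and 16.1 CPM in batch 1 and 119, 131, 172 and 137 CPM in batch 3. Its lowest batch 3 library was far above the highest of batch 1, and its level was 9.86 times higher (log2 3.30 ± 0.11, adjusted p = 2.82e-09). Fdps makes farnesyl diphosphate, from which both sterols and protein prenyl groups are built. Its batch 1 libraries lay at 22.5, 21.8, 22.3 and 21.8 CPM and those of batch 3 at 211, 221, 313 and 208 CPM, where wild type 5 was the highest. The difference of 3.47 ± 0.14 was the largest on the mevalonate list. Ggps1 leads away from sterols, to geranylgeranyl diphosphate. It was the member not called, at 27.1 ± 1.47 and 26.1 ± 3.42 CPM (log2 -0.07 ± 0.12, adjusted p = 0.626), and its small difference turned to 0.0102 when libraries were scaled by their totals alone.

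On the squalene side, Fdft1, squalene synthase, differed by 2.86 ± 0.11, and Lss, which closes the first sterol ring system, by 2.49 ± 0.11. Sqle, the squalene epoxidase and a second control point, lay at 15.6, 17.0, 21.3 and 18.5 CPM in batch 1 and 164, 171, 153 and 162 CPM in batch 3. The batches were well apart, with a difference of 3.18 ± 0.11 (adjusted p = 2.82e-09). Cyp51, lanosterol demethylase, lay at 23.9, 25.9, 30.5 and 25.6 CPM against 173, 176, 242 and 192 CPM, a difference of 2.95 ± 0.11. Msmo1 removes methyl groups at carbon 4 and is listed in the tables as Sc4mol. Its levels were 67.5, 75.4, 80.4 and 73.0 CPM in batch 1 and 266, 215, 324 and 235 CPM in batch 3, 3.63 times higher. Hsd17b7, which reduces the 3-keto sterol, lay at 6.72, 6.14, 7.17 and 6.27 CPM against 54.6, 52.4, 50.1 and 47.7 CPM, with no overlap and a difference of 2.93 ± 0.10.

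Several later steps differed less. Sc5d, lathosterol oxidase, lay at 25.4, 24.2, 23.7 and 22.6 CPM in batch 1 and 92.1, 93.2, 118 and 94.8 CPM in batch 3, 4.21 times higher and with no overlap (adjusted p = 7.12e-08). Tm7sf2 and Lbr, which share the sterol reductase step at carbon 14, differed by 1.06 ± 0.17 and 0.70 ± 0.09, and Lbr also encodes a nuclear envelope receptor. Dhcr7, which reduces 7-dehydrocholesterol, rose by 0.91 ± 0.17, with 8.51 ± 0.680 CPM in batch 1 and 16.7 ± 3.95 CPM in batch 3. Lbr and Dhcr7 were the called enzymes that did not pass a test against a 1.5-fold change.

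**Figure D1:**
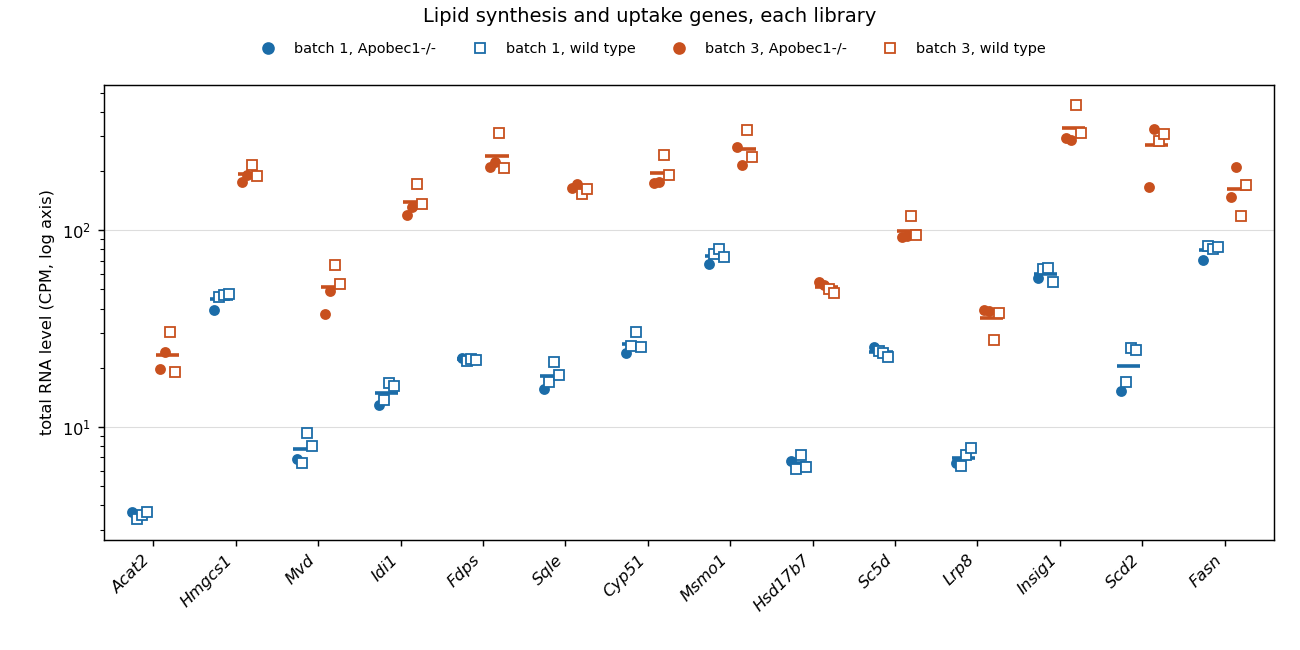
Total RNA levels of 14 lipid synthesis and uptake genes in CPM on a log axis, 1 point per library, with filled circles for Apobec1-/-, open squares for wild type, blue for batch 1, orange for batch 3 and bars at batch means. Every orange point of each gene lies above every blue point of that gene, from Fasn with the smallest fitted difference to Scd2 with the largest.

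Of 14 genes of sterol sensing and uptake tested, 8 were called higher and 1 lower (median 0.42). Insig1, which holds SREBP in the endoplasmic reticulum and is itself an SREBP target, lay at 57.3, 63.5, 63.9 and 54.4 CPM in batch 1 and 296, 286, 432 and 312 CPM in batch 3 (log2 2.52 ± 0.12, adjusted p = 3.36e-08). The 2 batches formed separate groups in each genotype. Srebf2, which encodes SREBP2, lay at 43.5, 45.5, 39.2 and 43.8 CPM and at 108, 167, 79.6 and 141 CPM. It was 2.76 times higher, with wild type 5 the lowest of batch 3 and still above batch 1. Stard4, a cytosolic sterol carrier, differed by 2.01 ± 0.14 and Lrp8, an apolipoprotein E receptor, by 2.31 ± 0.15. Mylip, an LXR target that encodes a ubiquitin ligase, moved the other way, from 67.3 ± 2.74 to 27.5 ± 4.78 CPM (log2 -1.25 ± 0.12, adjusted p = 6.91e-06). Scap, Mbtps1, Npc1, Soat1 and Insig2, which serve SREBP transport, cleavage and sterol storage or exit from lysosomes, were not called; these 5 were named after their values were seen.

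Fatty acid genes rose with the sterol genes, most of all the desaturases. Of 16 tested, 14 (87.5%) were called higher, against 24.2% of all genes, and none lower, with a median of 0.89. Against a 1.5-fold change, 8 of the 16 were called higher and none lower. Scd2, a stearoyl-CoA desaturase, lay at 15.2, 16.9, 25.2 and 24.7 CPM in batch 1 and 165, 329, 284 and 308 CPM in batch 3. Even its lowest batch 3 library, Apobec1-/- 5, was several times the highest of batch 1 (log2 3.82 ± 0.24, adjusted p = 2.22e-06). Scd1, its paralog, lay at 0.549, 1.62, 0.495 and 0.884 CPM against 10.9, 24.4, 23.7 and 18.3 CPM, 21.4 times higher. Fads2, the delta-6 desaturase of polyunsaturated fatty acids, rose from 1.92 ± 0.225 to 33.7 ± 3.30 CPM (log2 4.12 ± 0.15). Elovl6, which lengthens palmitate, was 3.84 times higher. The synthase itself, Fasn, lay at 70.4, 83.4, 80.8 and 82.5 CPM against 147, 209, 118 and 169 CPM, 1.99 times higher (log2 0.99 ± 0.16, adjusted p = 3.87e-04).

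LXR genes of cholesterol efflux fell in the same libraries. Of the 12 tested, which include the receptors Nr1h2 and Nr1h3, 8 were called lower, against 23.3% of all genes, and 1 higher, with a median of -1.32. Apoe, the carrier of exported cholesterol, lay at 1714, 1666, 1864 and 1847 CPM in batch 1 and 45.9, 50.6, 61.1 and 51.9 CPM in batch 3. This is 33.1 times lower (log2 -5.05 ± 0.11, adjusted p = 8.75e-11), with no overlap. Abca1, which loads cholesterol onto apolipoprotein A-I, lay at 924, 783, 891 and 860.3 CPM against 39.0, 78.8, 63.5 and 78.0 CPM (log2 -3.72 ± 0.20). Apobec1-/- 5 was the lowest library of batch 3. Abca9, a related transporter, fell by 3.46 ± 0.17. Apoc2, the activator of lipoprotein lipase, had a log2 difference of -3.17 ± 0.38, which became -2.55 without Apobec1-/- 1 and -3.90 without wild type 5. Abcg1, which exports cholesterol to HDL, was not called at 424, 506, 422 and 450.1 CPM and 270.0, 395, 404 and 409 CPM (log2 -0.24 ± 0.12, adjusted p = 0.120), although without Apobec1-/- 6 it was called lower (adjusted p = 0.0405). The exception was Lpcat3, a phospholipid remodelling enzyme, which rose from 25.6 ± 3.34 to 59.3 ± 8.25 CPM.

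Among 19 PPAR-gamma and lipid handling genes, 3 were called higher, or 5 without wild type 6, and 4 lower. With all 8 libraries the shares, 15.8% higher and 21.1% lower, lay below the 24.2% and 23.3% of all genes. Cd36, the receptor of fatty acids and oxidised lipoproteins, fell from 1652 ± 189.9 to 674 ± 136 CPM, and Lpl, lipoprotein lipase, from 6556 ± 611 to 3419.9 ± 392 CPM. Rxra, the shared partner of LXR and PPAR-gamma, fell by 1.22 ± 0.10. In the other direction were Fabp5, a fatty acid carrier, Acsl3, which activates fatty acids, and Plin2, which coats lipid droplets, at 1.01 ± 0.17, 0.67 ± 0.09 and 0.51 ± 0.10.

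**Figure D2:**
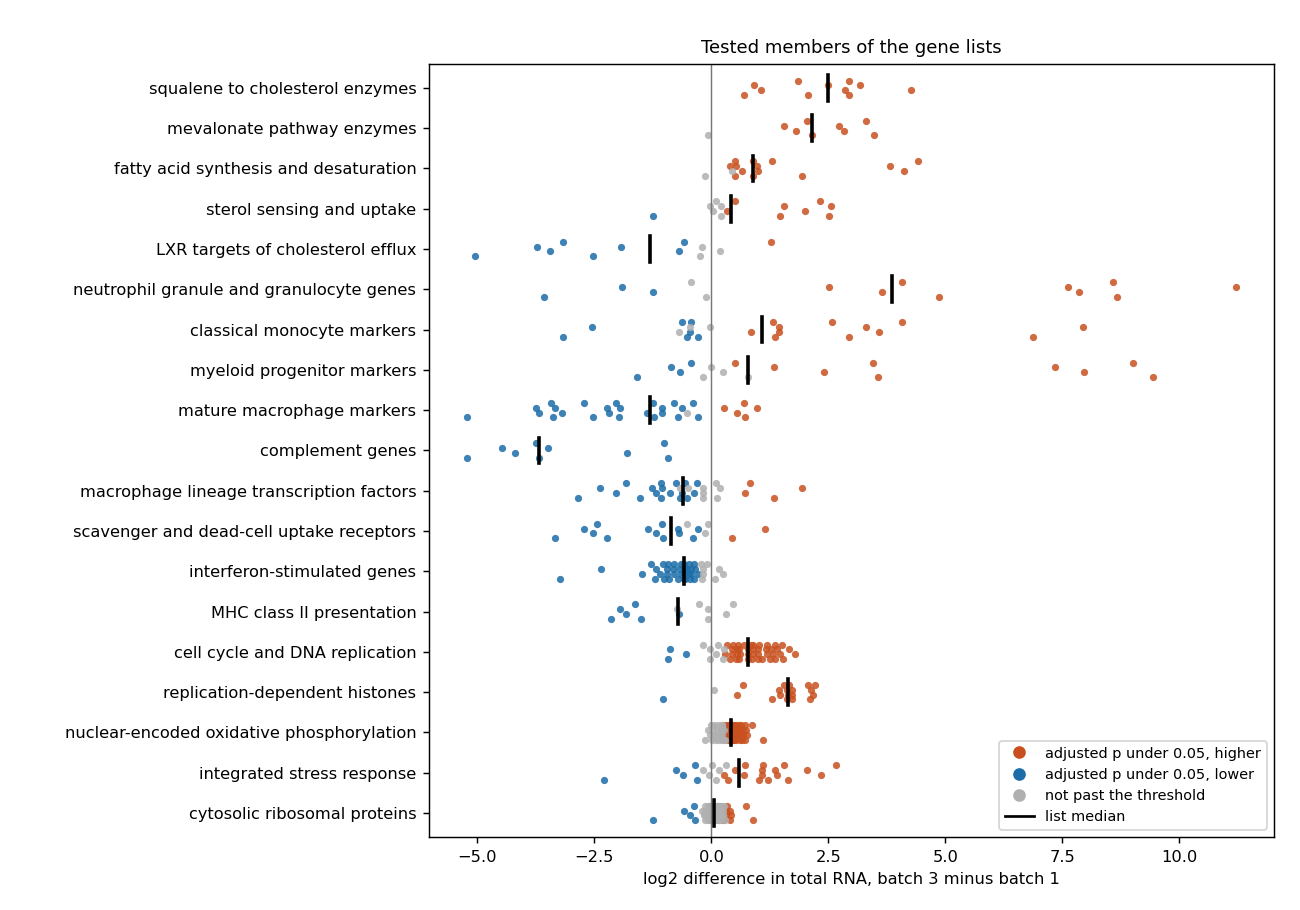
Log2 difference in total RNA, batch 3 minus batch 1, for the tested members of 19 gene lists, 1 dot per gene, in orange or blue where called higher or lower and in grey otherwise, with a black bar at each list's median. Sterol enzymes other than Ggps1, at -0.07, lie to the right of 0, with list medians of 2.49 and 2.15. Complement genes lie to the left with a median of -3.69, and the granulocyte and progenitor lists reach furthest to the right. Ngp, Ctsg and Elane, with no count in batch 1, are drawn at fitted values, and their counts give only a lower bound.

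Granule transcripts that were near or at 0 in batch 1 were present in every batch 3 library. On the list of neutrophil granule and granulocyte genes, 9 of 14 tested members were called higher and 3 lower, with a median of 3.86 that was the same with genes at 0 set to their bound. The 19 listed genes summed to 71.1 to 144 CPM in batch 1, where Ngp, Gfi1 and Retnlg had no count, and to 453 to 608 CPM in batch 3. S100a9, a calcium-binding protein of neutrophils and monocytes, lay at 0.549, 0.0853, 1.61 and 0.265 CPM in batch 1 and 213, 161, 225 and 228 CPM in batch 3. Its partner S100a8 lay at 0.411, 1.02, 1.24 and 0.177 CPM against 137, 104, 151 and 142 CPM (log2 7.63 ± 0.26). For S100a9 the difference was 8.59 ± 0.34, and 9.58 without wild type 2, whose level was the highest of batch 1. Ltf, lactoferrin of secondary granules, had 1, 3, 1 and 1 counts in batch 1 and 483, 438, 415 and 499 in batch 3 (log2 8.67 ± 0.21, adjusted p = 1.80e-10). Ngp, a secondary granule protein, had no count in any batch 1 library and 197, 302, 160 and 309 counts in batch 3. Against a floor of 3 counts over the 4 libraries, it was at least 458-fold higher. Camp, the cathelicidin, had 1 count in batch 1, in wild type 1, and 247 in batch 3, a ratio of 351 (95% interval 62.4 to 13917, exact, counting error only). Lcn2, which binds bacterial siderophores, had 8, 0, 5 and 3 counts in batch 1 and 72, 106, 53 and 122 in batch 3, with a difference of 4.86 ± 0.53 and 5.63 without Apobec1-/- 1.

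Primary granule genes, made by the earliest granulocyte and monocyte precursors, followed. Mpo, myeloperoxidase, had 2 counts in batch 1, both in wild type 1, and 110, 154, 76 and 135 counts in batch 3, a ratio of 337 (95% interval 92.9 to 2794). Prtn3, proteinase 3, had 2 and 290 counts, a ratio of 206 (56.5 to 1709). Ctsg, cathepsin G, and Elane, neutrophil elastase, had none in batch 1, and in batch 3 were at least 132-fold and 100.4-fold above the floor. In batch 3 Mpo lay at 17.5 ± 4.37 CPM and Ctsg at 10.4 ± 1.89 CPM.

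The progenitor list, which includes those 4 genes, had 9 of 17 tested members (52.9%) higher and 4 (23.5%) lower (median 0.79). Of all genes, 24.2% were higher and 23.3% lower. Kit, the stem cell factor receptor, lay at 8.64, 12.9, 6.93 and 8.75 CPM in batch 1 and 44.7, 69.8, 41.1 and 52.8 CPM in batch 3, 5.33 times higher (adjusted p = 1.16e-05). The batches did not overlap. Igfbp4, Cebpa and Cdk6, an IGF-binding protein, a myeloid transcription factor and a cell cycle kinase, fell by 1.58, 0.67 and 0.43 on the log2 scale.

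Classical monocyte markers went both ways, 12 of 22 higher and 7 lower, and only 3 lower when Apobec1-/- 1 was left out. Ly6c2, a surface antigen of inflammatory monocytes, had 2, 1, 3 and 2 counts in batch 1 and 183, 172, 199 and 144 in batch 3 (log2 6.87 ± 0.27). Its near-identical neighbour Ly6c1 had a difference of -0.63 ± 0.18, which was not called without Apobec1-/- 1 (adjusted p = 0.208), and reads shared between these copies could be divided differently by another counting. Chil3, the chitinase-like protein Ym1 listed as Chi3l3, lay at 0.549, 0, 0.866 and 0.177 CPM against 77.3, 81.5, 87.1 and 93.0 CPM. Its difference was 7.94 ± 0.31, and 8.65 without wild type 2, and near-identical relatives make its level uncertain too. Plac8, a marker of immature myeloid cells, was higher by 3.58 ± 0.22. Ccr2, the receptor that brings monocytes out of the marrow, was instead lower, at 93.3, 145, 130.2 and 126 CPM and 63.5, 72.0, 101 and 99.3 CPM, where the ranges overlapped (log2 -0.43 ± 0.09, adjusted p = 0.00146). That call was lost with batch 2 in the fit (adjusted p = 0.177). Thbs1, thrombospondin 1, fell by 3.17 ± 0.25.

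Some granulocyte genes also stood lower, 3 of the 14 tested (21.4%), which is below the 23.3% of all genes. Csf3r, the G-CSF receptor, lay at 45.7 ± 4.03 CPM in batch 1 and 19.0 ± 5.37 CPM in batch 3, and Mmp9, gelatinase B, differed by -1.92 ± 0.26. Fpr2, a formyl peptide receptor, lay at 22.1, 2.22, 19.5 and 11.3 CPM in batch 1 and 1.33 ± 0.384 CPM in batch 3 (log2 -3.57 ± 0.75). Wild type 1 was far below the rest of batch 1, and the call was lost without wild type 5 (adjusted p = 0.0548) and in the wild types alone (adjusted p = 0.0669).

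**Figure D3:**
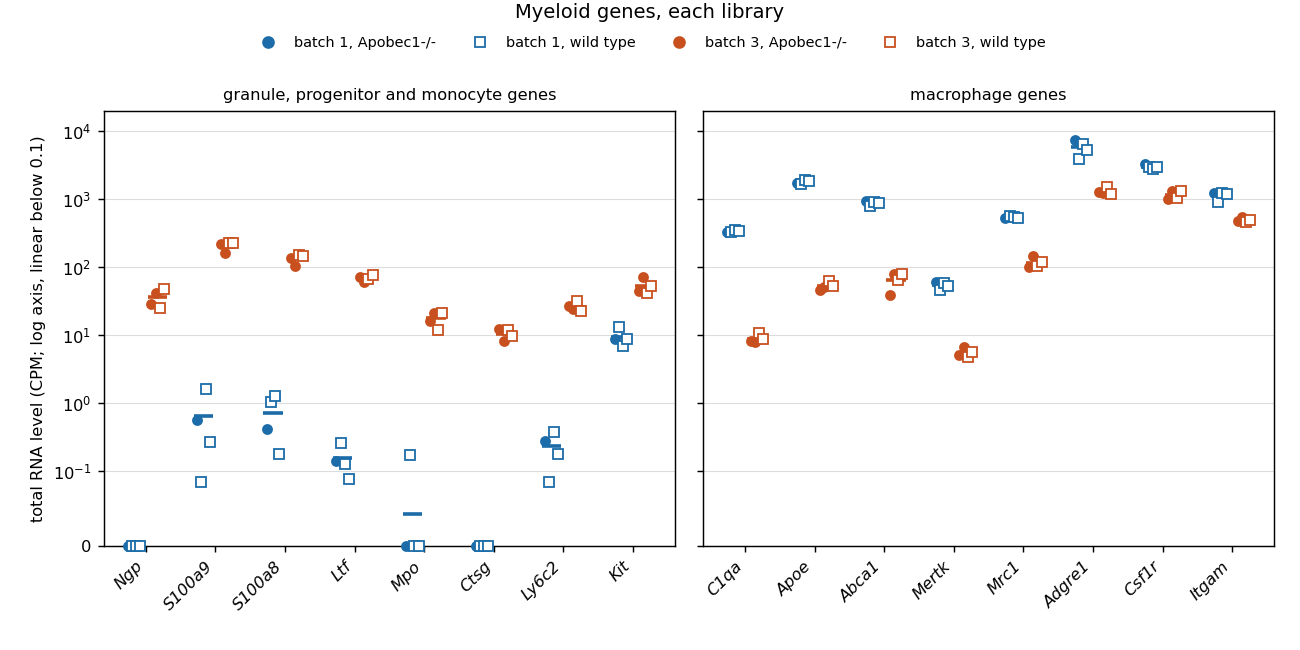
Total RNA levels in CPM of 8 granule, progenitor and monocyte genes (left) and 8 macrophage genes (right), 1 point per library, on an axis that is logarithmic above 0.1 CPM and linear below it, with filled circles for Apobec1-/-, open squares for wild type and bars at batch means. On the left all 4 batch 3 libraries lie above batch 1, where Ngp and Ctsg are at 0, and on the right all 4 lie below it.

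Mature macrophage markers were lower in batch 3. Of 30 tested, 24 (80%) were called lower, 5 (16.7%) higher and 1 neither, with a median of -1.32. Of all genes, 23.3% were lower and 24.2% higher. Against a 1.5-fold change, 18 of the 30 were called lower and 1 higher. C1qa, a chain of the first complement component, lay at 326, 320.2, 344 and 332 CPM in batch 1 and 8.01, 7.82, 10.5 and 8.62 CPM in batch 3. It was 37.2 times lower (log2 -5.22 ± 0.11, adjusted p = 7.62e-11). C1qb and C1qc, the other chains, fell by 3.69 and 3.75. Mertk, which binds dying cells, lay at 59.7, 46.0, 56.8 and 52.4 CPM against 4.95, 6.59, 4.70 and 5.54 CPM, and Mrc1, the mannose receptor, at 528, 553, 549 and 522 CPM against 98.0, 142, 104 and 116 CPM. Neither gene had overlapping batches, and they were 10.2 and 4.72 times lower. Folr2, a folate receptor, Stab1, a scavenger receptor, and Cd5l, a secreted apoptosis inhibitor of macrophages, differed by -3.42 ± 0.22, -2.71 ± 0.14 and -2.53 ± 0.22. Itgax, the integrin Cd11c, fell by 3.20 ± 0.15.

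Markers that define the cell type fell but stayed well above 0. Adgre1, listed as Emr1, lay at 7399, 3878, 6501 and 5309 CPM in batch 1 and 1268, 1216, 1511 and 1168 CPM in batch 3, 4.55 times lower (adjusted p = 3.56e-06). Csf1r, the M-CSF receptor, lay at 3289, 2911, 2791 and 2947 CPM against 982, 1321, 1016 and 1312 CPM (log2 -1.38 ± 0.12). Itgam lay at 1218, 911, 1215 and 1178 CPM against 475, 546, 463 and 487 CPM, 2.34 times lower. Cd14, a coreceptor for lipopolysaccharide, fell by 1.25 ± 0.10. The list did not move one way, so less mature describes batch 3 only in part: Gpnmb, Lgals3, Cd9, Spp1 and Cd68 were higher. Gpnmb, a lysosomal glycoprotein of lipid-laden macrophages, lay at 4693, 5689, 5281 and 5643 CPM and 10532, 10463, 9736 and 10463 CPM, and Spp1, osteopontin, at 3234, 3302, 3826 and 3751 CPM and 5857, 5063, 5252 and 4626 CPM. These batches did not overlap, and the differences were 0.97 ± 0.10 and 0.56 ± 0.11. With batch 2 in the fit, Spp1 was not called (adjusted p = 0.171). Lgals3, galectin 3, and Cd9, a tetraspanin, differed by 0.71 ± 0.09 and 0.69 ± 0.09.

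Lineage transcription factors were lower in 18 of 30 (60%) and higher in 4 (13.3%), against 23.3% and 24.2% of all genes (median -0.60). Against a 1.5-fold change, 10 were called lower and 2 higher. Maf, which drives terminal macrophage differentiation, lay at 304, 283, 271 and 283 CPM in batch 1 and 64.5, 85.1, 50.8 and 83.0 CPM in batch 3. It fell by 2.05 on the log2 scale, with no overlap. Irf8, required for monocytes, lay at 319.7 ± 13.6 and 149.6 ± 13.6 CPM (log2 -1.09 ± 0.09). Id3 and Spic, linked to resident and red pulp macrophages, differed by -2.84 ± 0.24 and -2.37 ± 0.46. Klf4 and Bhlhe40 were higher, by 1.33 ± 0.12 and 1.94 ± 0.15.

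All 9 complement genes tested were lower, with a median of -3.69. Besides C1q, Cd55, a membrane brake on complement, fell by 4.47 ± 0.73 from an uneven 20.7, 5.29, 28.0 and 16.3 CPM. Of 18 scavenger and dead-cell receptors, 13 (72.2%) were lower and 2 (11.1%) higher, against 23.3% and 24.2% of all genes. Against a 1.5-fold change, 8 were called lower and 1 higher. Scarb1, the HDL receptor, was among the 2 higher, at 1.14 ± 0.11. Clec7a, which binds fungal glucan, fell by 2.44 ± 0.11. Of 6 Fc receptors, 4 were lower and none higher, and 2 lower without Apobec1-/- 1. Fcgr1 and Fcgrt, which bind and recycle antibody, differed by -1.97 ± 0.13 and -2.06 ± 0.17. Among 16 Toll-like receptor genes, 11 were lower and 1 higher, against 7 and 0 without Apobec1-/- 1. A test against a 1.5-fold change called 3 lower and none higher. Tlr1 and Tlr9, sensors of lipopeptide and DNA, differed by -1.94 ± 0.12 and -1.80 ± 0.37.

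Inflammatory and interferon genes stood lower as well. No interferon-stimulated gene was called higher and 35 of 43 were called lower, with a median of -0.59. Against a 1.5-fold change, 13 of the 43 were called lower. Iigp1 and Mx1, an immunity GTPase and an antiviral GTPase, differed by -3.23 ± 0.36 and -1.49 ± 0.17. Ifi44 lay at 119, 65.3, 96.5 and 82.4 CPM in batch 1 and 20.1, 25.8, 17.2 and 14.2 CPM in batch 3, and Parp14, an ADP-ribosyltransferase, at 566 ± 18.5 and 239 ± 45.5 CPM. Among 21 cytokines and NF-kB targets, 9 were lower and 2 higher. Il1b, interleukin 1 beta, lay at 11.9, 7.00, 14.1 and 9.37 CPM against 0.437, 0.549, 0.940 and 0.462 CPM, 17.7 times lower, and Il10 and Cd40 differed by -1.53 ± 0.25 and -2.63 ± 0.26. Nfkbiz, an inducible regulator of NF-kB, fell by 2.61 ± 0.39. Tnf, the tumour necrosis factor, and Tgfbi, an adhesion protein, were the 2 higher, at 0.84 ± 0.16 and 0.62 ± 0.11.

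Of 19 chemokines and receptors, 9 (47.4%) were lower and 4 (21.1%) higher, against 23.3% and 24.2% of all genes. A test against a 1.5-fold change called 5 lower and none higher. Cxcl16, a chemokine that also binds oxidised lipid, differed by -1.98 ± 0.13, while Ccr1, Ccl3 and Ccl9 were higher by 0.79 ± 0.15, 0.73 ± 0.12 and 0.47 ± 0.11. Alternative activation genes were lower in 7 of 12 and higher in 2. The lectins Mgl2 and Clec10a differed by -3.52 ± 0.30 and -1.62 ± 0.17. Chil3, described above and also on this list, had its largest difference, upward at 7.94. For antigen presentation by MHC class II, 6 of 12 were lower and none higher. H2-Aa lay at 104, 196, 128 and 129 CPM in batch 1 and 29.8, 48.4, 46.7 and 56.2 CPM in batch 3, and Cd74, the invariant chain, at 278, 458, 335 and 346 CPM and 63.9, 113, 113 and 132 CPM. In both genes wild type 1 was the highest library. H2-Ab1, H2-Eb1 and the costimulator Cd86 fell by 1.83, 1.96 and 2.14. Ciita, the master activator of these genes, had overlapping batches (log2 -0.68 ± 0.25, adjusted p = 0.0395), and its call was lost without each of 5 single libraries, Apobec1-/- 1, 5 and 6 and wild types 1 and 5.

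Lysosomal genes divided by kind, mostly by small differences. Hydrolases were lower in 17 of 33 and higher in 6 (median -0.24). Membrane and proton pump genes were higher in 13 of 25 and lower in 4, or 2 without Apobec1-/- 1 (median 0.28). A test against a 1.5-fold change called 5 hydrolases lower and 1 higher. It called 1 membrane or pump gene higher and 1 lower. The lower hydrolases included Ctsf, cathepsin F, and Pla2g15, a lysosomal phospholipase, at -1.51 ± 0.14 and -1.30 ± 0.09. Ctsk, the collagen-degrading cathepsin K, was higher at 1.56 ± 0.23, with wild type 5 at 43.1 CPM above the other 3 of its batch. Pump subunits Atp6v1c1 and Atp6v0b rose by 0.88 ± 0.09 and 0.71 ± 0.10, while Atp6v0d2, a subunit abundant in osteoclasts, and Slc11a1, the phagosomal metal exporter Nramp1, fell by 0.91 and 0.61.

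Proliferation genes were higher in batch 3. Of 51 cell cycle and replication genes, 41 were called higher and 3 lower, with a median of 0.79. Against a 1.5-fold change, 23 were called higher and none lower. Ccnb1, the mitotic cyclin B1, lay at 36.5, 36.6, 35.4 and 42.0 CPM in batch 1 and 125, 85.6, 118 and 95.6 CPM in batch 3. Ccna2, cyclin A2, lay at 50.7, 50.4, 47.7 and 54.9 CPM against 166, 142, 139.9 and 149 CPM, with little spread within batches. They were 2.83 and 2.90 times higher. Birc5 and Ube2c, which act in mitosis, differed by 1.65 ± 0.09 and 1.79 ± 0.17 on the log2 scale. Mki67, the Ki-67 antigen, overlapped between batches at 195, 248, 213 and 235 CPM and 349.8, 375, 242 and 381 CPM (log2 0.59 ± 0.15, adjusted p = 0.00701), and it was not called without Apobec1-/- 1 (adjusted p = 0.0723). The 3 lower genes were the cyclin Ccnd2 and the inhibitors Cdkn1a and Cdkn1b, at -0.93 ± 0.22, -0.88 ± 0.19 and -0.54 ± 0.10. Ccnd1, the M-CSF-responsive cyclin D1, was not called (log2 -0.17 ± 0.18, adjusted p = 0.476), but was called lower without Apobec1-/- 1 (log2 -0.50, adjusted p = 0.0196).

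Replication-dependent histones were higher in 18 of 20 and lower in 1, with a median of 1.64. Hist1h1b, a linker histone, lay at 43.6, 65.0, 53.4 and 60.6 CPM in batch 1 and 277, 179, 236 and 286 CPM in batch 3, and Hist2h4, a core histone H4, was 4.29 times higher. Near-identical copies make the level of any single histone gene uncertain. Of 25 ribosome biogenesis and MYC target genes, 6 were higher, a share close to the 24.2% of all genes, and none lower, or 2 higher and 2 lower without Apobec1-/- 1. Cytosolic ribosomal proteins had 9 of 73 higher and 5 lower, a share of calls below that of all genes. The lower calls moved with single libraries: 17 without wild type 5, where the median was -0.09, 3 without wild type 2, wild type 3 or Apobec1-/- 6, 2 without wild type 6 and 1 without Apobec1-/- 1.

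Of 65 nuclear genes of oxidative phosphorylation, 42 were higher and none lower, with a median of 0.41. These differences were small, and 2 of the 65 passed a test against a 1.5-fold change. Ndufs8, of complex I, lay at 26.6, 21.9, 23.7 and 24.7 CPM in batch 1 and 55.2, 48.4, 58.6 and 47.1 CPM in batch 3, and Atp5k, of the ATP synthase, differed by 0.87 ± 0.12. The batches did not overlap for Ndufs8. Glycolysis and hypoxia genes were mixed, 11 of 29 (37.9%) higher and 10 (34.5%) lower, against 24.2% and 23.3% of all genes. Aldoc, an aldolase, and Slc2a3, the glucose transporter GLUT3, were higher by 1.64 ± 0.13 and 1.43 ± 0.11, while Slc2a1, GLUT1, lay at 64.2, 61.3, 65.7 and 68.8 CPM against 49.1, 51.5, 37.0 and 40.9 CPM and was lower. Vegfa, the vascular growth factor, lay at 122, 146, 113 and 134 CPM against 19.7, 17.4, 23.3 and 24.0 CPM, 5.90 times lower, and Pfkfb3, which speeds glycolysis, fell by 1.15.

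Genes of the integrated stress response, many of which serve amino acid supply, were higher in 17 of 28 and lower in 5, or 2 without Apobec1-/- 1 (median 0.60). Phgdh, the first enzyme of serine synthesis, lay at 10.7, 19.7, 16.1 and 15.3 CPM in batch 1 and 96.9, 94.0, 106 and 81.3 CPM in batch 3, 6.34 times higher (adjusted p = 1.99e-07). Asns, asparagine synthetase, lay at 23.7, 34.4, 35.6 and 32.5 CPM against 110.5, 99.8, 94.3 and 84.5 CPM. Slc7a5 and Chac1, an amino acid transporter and a glutathione-degrading enzyme, differed by 2.05 ± 0.21 and 2.35 ± 0.34. Ddit3, the stress factor CHOP, was instead lower at -0.61 ± 0.13, and Vldlr, a lipoprotein receptor, at -2.29 ± 0.33. Endoplasmic reticulum chaperones had 5 of 20 higher and 5 lower, or 3 lower without wild type 2. With all 8 libraries these shares, 25% each, were close to the 24.2% and 23.3% of all genes. Hspa5, the chaperone BiP, lay at 1030.3 ± 65.4 and 749 ± 58.6 CPM, and Edem1, of glycoprotein quality control, rose by 0.95 ± 0.10.

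For oxidative stress and iron, 7 of 27 (25.9%) were higher and 10 (37.0%) lower, against 24.2% and 23.3% of all genes. Cp, ceruloplasmin, which oxidises exported iron, lay at 73.5, 26.4, 68.1 and 50.4 CPM in batch 1 and 0.291, 0.137, 0.157 and 0.770 CPM in batch 3. Its difference was -7.43 ± 0.54, and -6.64 without Apobec1-/- 1 or -8.28 without wild type 6. Slc40a1, ferroportin, the iron exporter, lay at 329, 306, 258 and 294 CPM against 67.8, 107, 77.7 and 86.4 CPM, 3.59 times lower. Blvrb and Cat, which reduce biliverdin and break down hydrogen peroxide, fell by 1.23 and 1.14, while Gpx1, Mt1 and Nqo1, of peroxide, metal and quinone defence, rose by 0.92 ± 0.10, 1.08 ± 0.10 and 1.15 ± 0.20. With batch 2 in the fit Nqo1 was not called (adjusted p = 0.113). The NADPH oxidase had 1 of 7 genes higher and 1 lower, 14.3% each and below the shares of all genes.

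Integrins and adhesion genes were lower in 14 of 22 and higher in 4. Itgal, LFA-1 alpha, differed by -2.59 ± 0.46, while Itgb7 and Itga1, 2 other integrin chains, were higher by 1.59 ± 0.20 and 3.40 ± 0.27. Of 24 actin genes 9 (37.5%) were higher and 4 (16.7%) lower, against 24.2% and 23.3% of all genes. Vim, vimentin, lay at 868, 934, 997 and 1019 CPM against 2311, 2479, 2409 and 2609 CPM. Marcks lay at 393 ± 10.7 against 115 ± 19.6 CPM. Vim was 2.62 times higher, and Lmna, lamin A, rose by 0.85 ± 0.10. Immediate early genes, which respond within minutes to stimulation, were lower in 7 of 18 (38.9%), 4 without Apobec1-/- 1, and higher in 3 (16.7%). Of all genes, 23.3% were lower and 24.2% higher. Egr2 and Nr4a1 fell by 1.83 and 1.53, and Fos (log2 0.32 ± 0.34) and Egr1 (log2 -0.66 ± 0.37) were not called.

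Markers of other cells that marrow cultures can hold also differed between batches. All 5 dendritic cell markers tested were lower, 3 without Apobec1-/- 1 or without wild type 2, with summed levels of 617 to 689 CPM in batch 1 and 342 to 430 CPM in batch 3. The mast cell and basophil list had 2 of 11 members tested, Kit and the histidine decarboxylase Hdc, both higher. Its sum was 7.17 to 13.8 CPM in batch 1 and 46.9 to 76.3 CPM in batch 3, most of it Kit, while the mast cell proteases Cma1, Mcpt4 and Tpsb2 had no count in either batch. The eosinophil sum fell from 39.0 to 60.3 CPM to 2.62 to 3.92 CPM, most of it Ccr3 in batch 1, the eotaxin receptor, at 35.9, 54.5, 52.4 and 47.2 CPM and 0.873, 0.549, 0.940 and 0.308 CPM. Ear1 and Ear6, eosinophil ribonucleases, had no count. Lymphocyte markers summed to 6.18 to 7.54 CPM in batch 1 and 3.16 to 4.62 CPM in batch 3, where Cd3e and Cd79a had no count, and 1 of the 2 tested was lower. Erythroid and platelet markers summed to 28.5 to 35.7 CPM and 18.0 to 28.8 CPM, with the haemoglobin genes Hba-a1 and Hba-a2 at 0 and the 1 tested lower. Stromal and endothelial markers summed to 159 to 202 CPM and 295 to 377 CPM, most of it Vwf, and Cdh5 and Dcn, which mark endothelium and fibroblasts, had no count in batch 3. The 3 tested, Vwf, Kdr and Col4a1, were higher by 0.83 ± 0.11, 1.60 ± 0.17 and 1.78 ± 0.24. Without the count filter, 17 members were fitted, with 3 called higher, none lower and a median of -1.17. Osteoclast markers had 3 of 11 (27.3%) higher and 4 (36.4%) lower, against 24.2% and 23.3% of all genes. Dcstamp, the fusion receptor, was among the lower, at -1.54 ± 0.26. The part of these cells, and of granulocyte precursors in the cultures, in the differences above was not tested.

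Batch 2, with 3 Apobec1-/- cultures and 1 wild-type culture, gives a further set of levels. It entered the scaling and the alternative fit named above, and its levels are given here without a test. Its mean lay between those of batches 1 and 3 for 19 of the 19 called sterol enzymes, and nearer to batch 1 on the log2 scale for 16. Fdps lay at 29.8, 77.9, 21.9 and 114 CPM in batch 2, the wild type last, with a mean between 22.1 and 238 CPM. S100a9 lay at 16.6, 27.5, 42.6 and 68.0 CPM and Ltf at 10.8, 12.5, 19.2 and 20.4 CPM, above every batch 1 library and below every batch 3 library. Of 12 called granulocyte genes, the batch 2 mean lay between for 7 and nearer to batch 1 for 3. Of 29 called mature macrophage markers, it lay between for 12 and nearer to batch 1 for 24. Of 35 called interferon-stimulated genes, it lay between for 1 and nearer to batch 1 for 35. Apoe lay at 5211, 1384, 5597 and 3554 CPM in batch 2 and C1qa at 681, 252, 731 and 308 CPM, far above batch 3. Of 42 called oxidative phosphorylation genes, the batch 2 mean lay between for 18 and nearer to batch 1 for 37. Kit, at 2.58, 3.25, 3.37 and 1.54 CPM, was lower in every batch 2 library than in any other library, and Cd5l, at 505, 568, 562 and 304 CPM, had a mean between them.

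**Figure D4:**
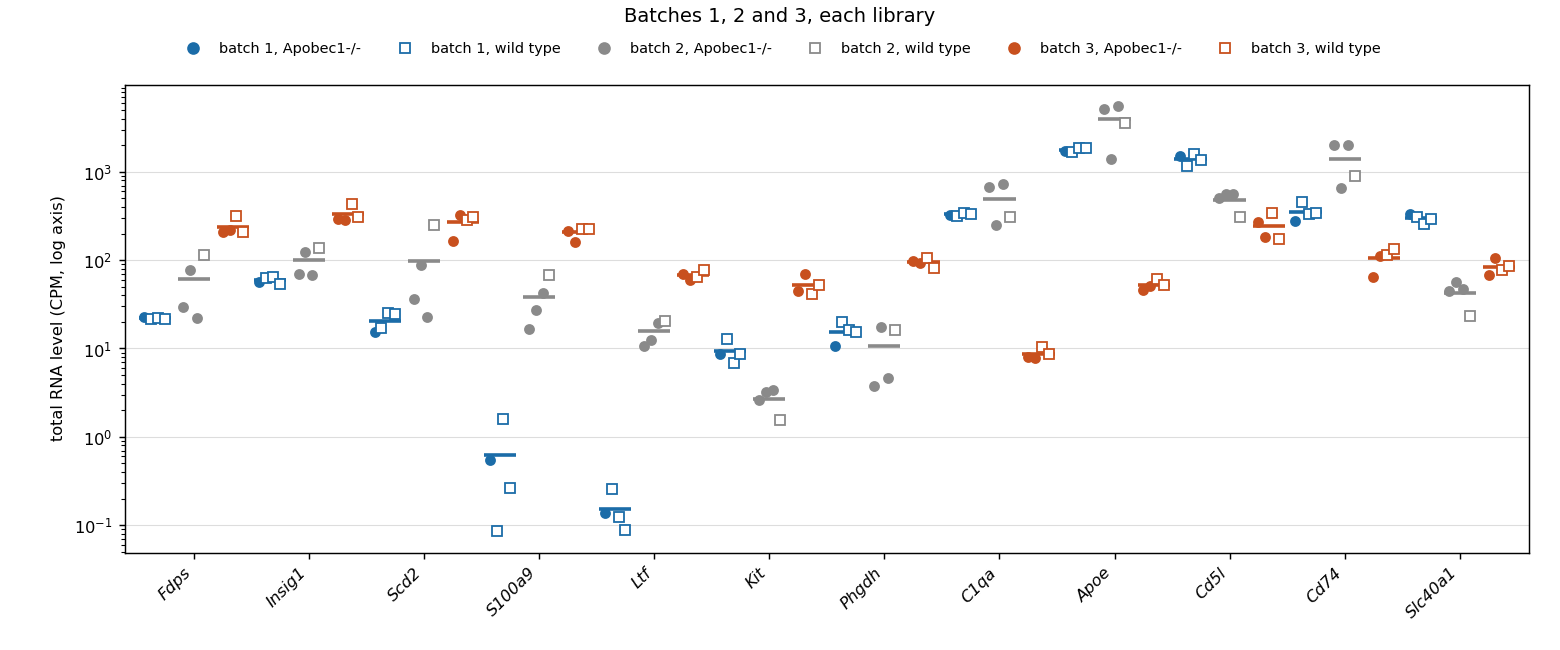
Total RNA levels in CPM on a log axis of 12 genes in all 12 libraries, blue for batch 1, grey for batch 2 and orange for batch 3, with filled circles for Apobec1-/-, open squares for wild type and bars at batch means. Fdps, Insig1, Scd2, S100a9 and Ltf have the batch 2 mean between the other means, C1qa, Apoe and Cd74 have batch 3 lowest, and Kit, Phgdh and Slc40a1 have the lowest mean in batch 2.

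Ribosome footprints, the RNA fragments that ribosomes protect from nuclease, were sequenced from the same 8 cultures. Batch 3 footprint libraries held 29561 to 223504 counts and those of batch 1 held 325979 to 1996862, so 4232 genes could be tested. Of these, 685 (16.2%) were called higher in batch 3 and 703 (16.6%) lower, or 414 and 444 without Apobec1-/- 1. Among 13 sterol enzymes tested, 12 were higher, Lbr being the one not called. Sqle differed by 3.92 ± 0.31 (adjusted p = 8.47e-14) and Fdps by 3.62 ± 0.21. S100a9 had 1, 0, 0 and 0 footprint counts in batch 1 and 45, 20, 58 and 7 in batch 3. Mature macrophage markers were lower in 20 of 28 and higher in 5, with Apoe of the LXR list at -4.95 ± 0.17 and Mertk at -3.57 ± 0.57. Both kinds of library come from the same cultures, so they are not independent.

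Of the 4229 genes tested in both, 468 were called higher in both and 597 lower in both, while 10 were called in opposite directions. Ribosomal proteins stood apart from their total RNA: 59 of 70 were called higher in footprints, with a median of 0.90, against 9 of 73 in total RNA. That count ran from 48 to 59 over the alternatives. The batches differ in footprint depth as given above, the part of which was not tested, and the difference between the 2 kinds of library was not tested. Cell cycle genes were higher in 21 of 35 and oxidative phosphorylation genes in 30 of 64, the latter in 15 without Apobec1-/- 1 and 17 without wild type 5.

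**Figure D5:**
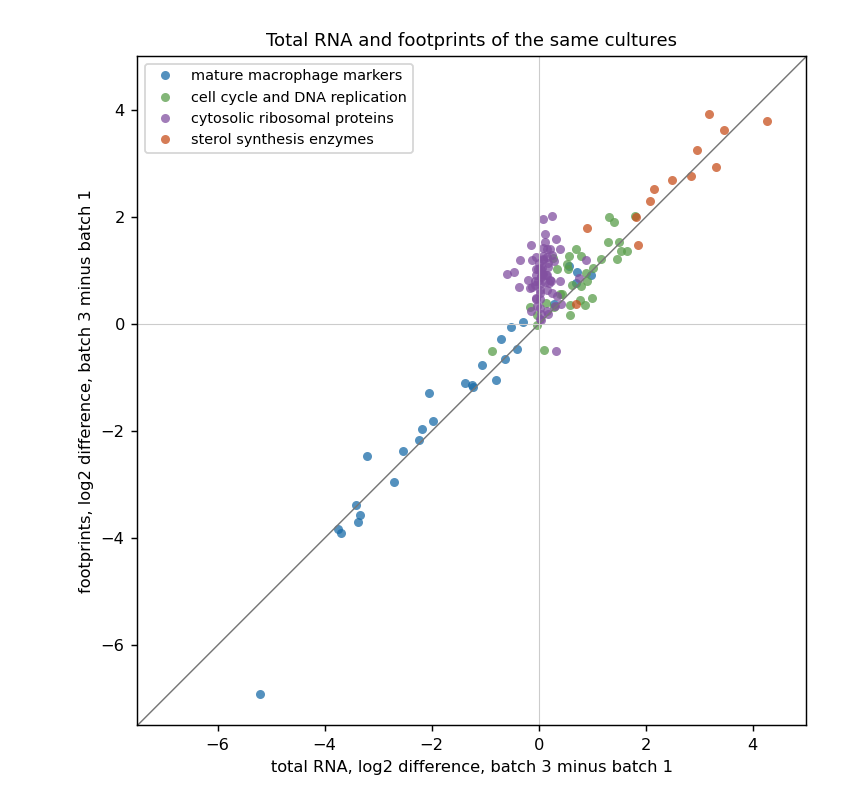
Log2 difference between batches, batch 3 minus batch 1, in total RNA (horizontal) and in footprints (vertical) for members of 4 lists tested in both, with a grey line where the 2 are equal. Sterol enzymes (orange) and mature macrophage markers (blue) lie along the line, and most ribosomal proteins (purple) lie above it near 0 on the horizontal axis.

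The difference between batches was then compared between genotypes. No gene was called for a batch difference that itself differed between Apobec1-/- and wild type (0% of 10718 genes, smallest adjusted p = 0.186, edgeR). At an unadjusted p under 0.05, 216 genes differed upwards and 241 downwards. Together these are a smaller share of the 10718 genes than the 0.05 that chance alone gives. DESeq2 called 12. With 1 Apobec1-/- library in batch 1, this test rests on few samples, and 0 calls do not show that the genotypes responded alike.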

How the data were processed

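Total RNA and ribosome footprints were sequenced from the same mouse cultures. The authors deposited raw read counts per gene, 1 table per library, and the submitters' processing notes name the build mm10, HTSeq and TopHat2 2.1.0, with no settings or strand. Rows for reads outside genes, with several alignments and the like were left out: those in no feature were 4.32% to 10.7% of a total RNA library.

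Genes passing filterByExpr with a minimum count of 10 in the 8 libraries were scaled by TMM over all 12 total RNA libraries and tested with edgeR 4.0.16 (R 4.3.3) quasi-likelihood, genotype and batch in the model, Benjamini-Hochberg adjustment. The alternatives used DESeq2 1.42.0, limma 3.58.1, other scalings and filters, and subsets of libraries. Counts limit precision: a gene at 0 was set to 3 counts over 4 libraries, and intervals cover counting error only.

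The comparison and the gene lists were chosen with earlier results of these data known. Named genes are those of at least 10 CPM with the 15 largest differences in each direction and no overlap, the 4 largest called in each direction of a list, and members marked as key; of these the most telling are printed. Mvk, Pmvk, Ggps1, Fdft1, Lss, Sc5d, Tm7sf2, Lbr and Dhcr7 were added to complete the pathway after their values were seen. Some genes that the rule names are not reported here, but they count in their lists.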

Additional observations from a re-analysis of the deposited data

Results flagged for a closer look

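In each named gene, the 4 libraries of a batch were searched for 1 that stood apart from the other 3, by Dixon's 95% limit on its gap to the nearest of them. This held in 19 of 374 groups, about the 1 in 20 that chance gives.

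Wild type 5 stood apart in 8 of the 19, all in batch 3. It was highest for the sterol enzymes Fdps (313 CPM, the others 208 to 221), Mvk (36.2 CPM, the others 28.0 to 29.0) and Sc5d (118 CPM, the others 92.1 to 94.8). It was also highest for Cd14 (307 CPM, the others 240 to 245), Ctsk (43.1 CPM, the others 20.5 to 21.3) and Ifitm6 (31.5 CPM, the others 17.4 to 19.4). It was lowest for Gpnmb (9736 CPM, the others 10463 to 10532) and Lrp8 (27.6 CPM, the others 37.9 to 39.4).

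Apobec1-/- 1, the one such culture of batch 1, stood apart in 4. It was highest for Apobec1 (1201 CPM, the others 431 to 490), Lrrn4 (80.1 CPM, the others 4.95 to 16.7) and Csf3r (51.7 CPM, the others 43.3 to 44.2), and lowest for Atp6v1c1 (240.3 CPM, the others 277 to 283). Wild type 1 was highest of batch 1 for H2-Ab1 (257 CPM, the others 149 to 163) and Ccdc87 (72.8 CPM, the others 12.6 to 19.1), and lowest for Itgam (911 CPM, the others 1178 to 1218) and Atp6v0b (261 CPM, the others 275 to 278). Apobec1-/- 5 was lowest of batch 3 for Abcg1 (270.0 CPM, the others 395 to 409) and Itga9 (0.146 CPM, the others 0.616 to 0.686). Wild type 6 was highest of batch 3 for Ccdc87 (2.77 CPM, the others 0 to 0.437).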

How the results depend on the processing

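The 19 sterol enzymes were called higher under every alternative but a test against a 1.5-fold change, which called 17, and 18 to 26 mature macrophage markers were called lower. That stricter test called 651 genes higher and 724 lower in total RNA. The wild-type libraries alone gave 2054 higher and 1924 lower. For the batch difference between genotypes, DESeq2 called 12 genes and leaving out 1 library 0 to 2. Footprint calls fell to 295 higher and 285 lower with a minimum count of 50, and ran from 414 to 764 higher and 444 to 742 lower without single libraries. Of 187 named genes, 149 kept their side of the threshold under every alternative. Among 4096 gene values, 62 lost a call, 6 gained one and 2 turned direction: Fos, at 0.32 overall and up to 0.66 without other single libraries, to -0.0819 without wild type 6, and Ggps1 to 0.0102 with library totals alone. The cause was not tested. With library totals alone 17 ribosomal protein genes were called higher and 3 lower, and the medians of the oxidative stress and iron list and of the NADPH oxidase list, both near 0, changed sign with the scaling. No paired analysis was possible because the batches share no replicate numbers. Footprint depth in batch 3, at most 223504 counts, limits what that comparison can detect.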

Other observations

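Several genes outside the lists were among the largest differences. Tmem176a and Tmem176b, neighbouring genes on chromosome 6 that encode related membrane proteins, fell together. Tmem176b lay at 321, 201, 312 and 259.6 CPM in batch 1 and 4.80, 8.92, 13.3 and 13.1 CPM in batch 3, and Tmem176a at 142, 89.2, 134 and 114 CPM and 1.75, 3.02, 4.39 and 4.77 CPM. The differences were -4.75 ± 0.29 and -5.12 ± 0.25, and no library of one batch reached the other. Their annotated spans overlap (chr6:48833811-48845948 and chr6:48841483-48845364, mm10), so without stated strand some reads could belong to either gene. Fcrls, an Fc receptor-like gene of macrophages, lay at 794, 306, 547 and 501 CPM and 11.8, 16.1, 12.4 and 14.9 CPM (log2 -5.37 ± 0.25, adjusted p = 3.05e-07, edgeR). Itga9, an integrin chain, differed by -5.49 ± 0.24, from 23.7 ± 2.18 CPM to under 1 CPM in each batch 3 library. Emr4, a relative of F4/80, lay at 31.0, 37.6, 27.8 and 22.0 CPM and 0.728, 1.78, 1.88 and 2.46 CPM (log2 -4.09 ± 0.27). In the other direction, Gpr97, an adhesion receptor of granulocytes, lay at 0.960, 0.768, 1.11 and 1.15 CPM and 14.6, 17.3, 10.5 and 13.9 CPM (log2 3.70 ± 0.22).

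Other large differences moved by over 1.5 times with single libraries. Lrrn4, a leucine-rich repeat protein, had 907 counts in batch 1 and 3 in batch 3, a ratio of 213 (95% interval 72.6 to 1034, exact, counting error only), with Apobec1-/- 1 the highest. Its fitted log2 difference was -5.88 without that library, -7.63 without Apobec1-/- 6 and -9.84 without wild type 6. Ccdc87, a coiled-coil protein, differed by -4.85 ± 1.17 (adjusted p = 0.0186), by -4.10 without wild type 1 and by -6.30 without wild type 6, and was not called without Apobec1-/- 1 (adjusted p = 0.0724), Apobec1-/- 6 (adjusted p = 0.0506) or wild type 5 (adjusted p = 0.0808).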
